A study of Mus musculus with 39 samples.

Results

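The ribosomal protein genes were taken as the rows whose symbol is Rpl or Rps followed by a number and at most 1 letter (a, x, l or y), plus Rplp0, Rplp1, Rplp2, Rpsa and Fau. This gave 80 of the 16979 genes in the table of the labelling and inhibition libraries and 80 of the 13938 genes in the table of the fixation libraries, with the same symbols in both. Of these, 47 carry Rpl symbols, of the large subunit, and 33 carry Rps symbols or are Fau, of the small subunit. Pseudogene rows ending in -ps are left out, and so are a few genes whose symbols have another ending, such as Rps3a1, Rpl22l1 and Rpl36al.

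The ribosome is built from ribosomal RNA and one copy of most of these proteins, so their genes are among the most strongly transcribed in any cell, and their mRNAs are long-lived. Most of the mRNAs begin with a C followed by a run of C and U bases, the terminal oligopyrimidine (TOP) motif, through which the growth-sensing kinase mTORC1 controls their translation. Quiescent muscle stem cells, or satellite cells, make little protein and raise translation when they activate. Skeletal muscle fibres also use Rpl3l, a paralogue that stands in for Rpl3 in heart and skeletal muscle.

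The 39 libraries held polyadenylated mouse RNA in 10 groups. Mice labelled in vivo carried Pax7CreER/+ and UPRTHA/+, in which a recombinase driven by Pax7, a satellite cell gene, is there to switch on UPRT, an enzyme that lets cells build 4-thiouracil (4tU) into new RNA. The labels used here give no genotype for the other groups. Labelled RNA was pulled down from whole hindlimb muscle after 4tU injected 6 h before harvest (TU_6h in vivo), or every 12 h for 1 d (TU_1d) or 4 d (TU_4d), with total muscle RNA (Input_muscle) beside it (n = 4 each). For the isolation label (TU_sort ex vivo, n = 4), 4tU was added while stem cells were isolated over about 6 h, and the labelled RNA of the purified cells was pulled down. It is set beside the total RNA of purified cells (Input_MuSC, n = 4), listed as unlabelled. Other stem cells were isolated with the RNA polymerase II inhibitor alpha-amanitin (MuSC_aAM) or with its solvent DMSO (MuSC_ctrlAM), 4 libraries each. In the fixation experiment, with RNA from a kit for fixed tissue in both groups, stem cells came from mice perfused with 1% paraformaldehyde (Fix, n = 4) or from unfixed mice (Fix_Control, n = 3). Whether replicates came from separate animals is not stated, and a p-value here weighs a difference against a spread of libraries that may be technical.

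The muscle fibre markers show which libraries stand apart. All 15 markers on the list were detected in every library except for 1 marker in isolated cells and 1 in DMSO cells, and their summed share of reads was 11.4 to 11.6% in the 6 h label, 20.01 to 20.3% after 1 d of labelling, 19.3 to 20.01% after 4 d and 17.2 to 17.6% in whole muscle. Fibre markers took 2.51, 7.85, 8.41 and 2.65% of reads in isolation-label replicates 1 to 4, against 0.0395 to 0.121% in isolated cells, and 0.883, 2.24, 2.40 and 2.74% with alpha-amanitin, against 0.0295 to 0.0438% with DMSO. Alpha-amanitin replicate 1 and DMSO replicate 1 also stood apart from their groups in the ribosomal protein genes. Their median level was 61.3 RPKM (reads per kilobase of gene model and per 1e6 reads, scaled to library size by the authors) in alpha-amanitin replicate 1 and 104 to 115 RPKM in the other 3, and 67.9 RPKM in DMSO replicate 1 and 39.4 to 49.7 RPKM in the other 3. The main results on these libraries are also given without them, in fits chosen after seeing the data. Depth, recovered as whole reads from the RPKM, was 2321903 to 7742378 reads in isolation-label libraries and 15307952 to 102619074 in those of the other 9 groups. The gene with the fewest reads in the isolation label was Rpl24, with 13 in 1 library.

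The sequences at the gene starts show what many members share beyond their names. RefSeq lists starts (build GRCm38.p6) for 59 of the 80 members. The strand of the gene was searched for 6 or more C or T in a row with a base no more than 10 bases from the annotated first base. Such a run was present at the start of 37 of 59 members (62.7%), and of 33.5% of the 26966 other genes. A C as the annotated first base with at least 4 C or T after it was present in 14 of 59 members (23.7%) and in 2.96% of the other genes. The starts below were chosen for the results that turn on these genes: some of the members that differed most from the rest, beside typical ones. Each runs from 40 bases before the annotated start to 20 bases from it on, so that base 41 is the annotated first base. Capitals mark runs that met this rule, and runs left in lower case lie farther from the annotated first base.
Rps27 (small subunit; chr3:90213629-90213688, minus strand): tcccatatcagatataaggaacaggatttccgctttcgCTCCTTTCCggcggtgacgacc
Rps27l (paralogue of Rps27; chr9:66946046-66946105, plus strand): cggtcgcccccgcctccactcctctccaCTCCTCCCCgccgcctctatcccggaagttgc
Rpl39 (large subunit; chrX:37085203-37085262, minus strand): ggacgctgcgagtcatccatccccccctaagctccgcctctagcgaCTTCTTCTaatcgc
Rps12 (small subunit; chr10:23787190-23787249, minus strand): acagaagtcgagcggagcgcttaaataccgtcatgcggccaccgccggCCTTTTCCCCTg
Rps6 (small subunit; chr4:86857348-86857407, minus strand): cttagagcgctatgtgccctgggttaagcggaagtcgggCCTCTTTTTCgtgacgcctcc
Fau (small subunit; chr19:6057907-6057966, plus strand): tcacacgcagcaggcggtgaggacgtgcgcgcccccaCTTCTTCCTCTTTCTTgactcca
Rpl4 (large subunit; chr9:64173347-64173406, plus strand): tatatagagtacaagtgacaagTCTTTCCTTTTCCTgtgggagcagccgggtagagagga
Rplp0 (ribosomal stalk; chr5:115559427-115559486, plus strand): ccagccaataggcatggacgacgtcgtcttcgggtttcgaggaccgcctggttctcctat
Rpl3l (muscle paralogue of Rpl3; chr17:24727786-24727845, plus strand): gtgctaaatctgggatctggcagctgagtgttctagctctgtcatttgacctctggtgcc
Fau holds the longest of these runs, 16 bases across its annotated start. Rpl3l has none at this start nor at its other RefSeq start, and the other RefSeq start of Rps27l has none. Rplp0 has no run within the limit of 10 bases at its only entry, where a lower-case run long enough to count lies just beyond it. Rpl41 and Rpl24, whose starts are not shown, have no run by this rule. These are matches of letters in a window, and annotated starts can lie some bases from the start in use.

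Levels of the members spread widely within each group. In isolated stem cells the group mean of a member had a median of 45.02 RPKM over the 80. The highest there were Rpl4, which lines the peptide exit tunnel, at 319 ± 13.5 RPKM (SD, n = 4), Rps27, a zinc-finger protein of the small subunit, at 313 ± 23.9 RPKM, and the stalk protein Rplp0 at 266 RPKM. The lowest were Rpl3l at 0.712 ± 0.391 RPKM and Rpl24, which bridges the subunits, at 1.76 RPKM. Ribosomal protein genes have many processed pseudogenes in the mouse genome, so the level of a single member depends on where the authors' counting put reads that match several copies. The median over members of the group mean was 287 RPKM in the isolation label and 45.02 RPKM in isolated cells, 97.8 RPKM with alpha-amanitin and 48.5 RPKM with DMSO. It was 58.7 RPKM after 6 h of labelling, 74.2 after 1 d, 106 after 4 d and 74.96 in whole muscle. In the separately scaled fixation table it was 509 RPKM in fixed and 151 RPKM in unfixed cells.

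**Figure D1:**
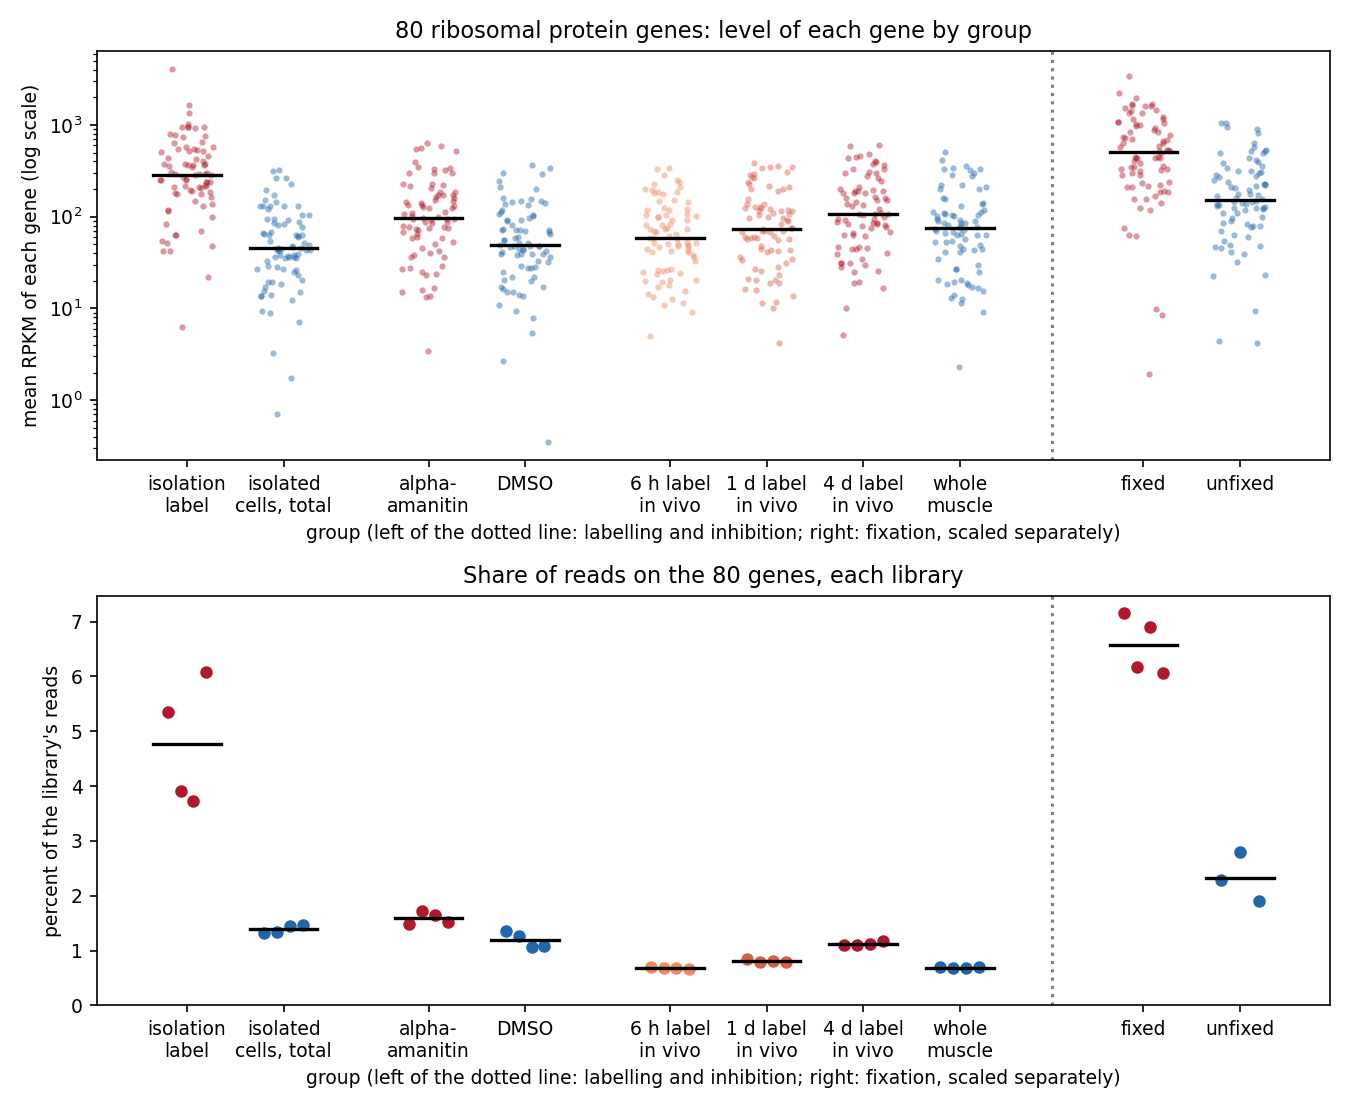
Upper panel: mean RPKM (log scale) of each of the 80 ribosomal protein genes by group, with the median over genes as a bar; lower panel: percent of each library's reads on the 80 genes, with the group mean as a bar. Shares are 3.72 to 6.08% in the isolation label and 6.06 to 7.15% in fixed cells, above the 1.32 to 1.46% of isolated cells and the 1.91 to 2.79% of unfixed cells.

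RNA pulled down after 4tU was added during isolation held more ribosomal protein transcripts than the total RNA of isolated cells. No pull-down from unlabelled cells is used here to measure background, and fibre-marker RNA was also present in it. All 80 members were higher in the isolation label than in the total RNA of isolated cells, and none was lower (limma with Benjamini-Hochberg adjustment over all genes at adjusted p under 0.05). Of all 14863 genes tested, 29.8% were called higher and 29.7% lower. The median change was 2.56 on the log2(RPKM + 0.5) scale, a 5.90-fold difference, against -0.07 over all genes tested. On reads alone, the members took 5.35, 3.91, 3.72 and 6.08% of the isolation-label libraries, against 1.32, 1.34, 1.46 and 1.46% of the isolated-cell libraries. The groups did not overlap, and replicates 2 and 3 of the label, which held the most fibre RNA, were the lower ones. Without those 2 libraries all 80 members were still called higher, with a median of 2.77. Of 14114 genes tested there, 4169 were called higher and 4834 lower. Rps27 then changed by 3.91, Rps27l by 3.48, Rpl3l by 4.46 and Rpl4 by 0.75. The 47 large-subunit members had a median change of 2.51 and the 33 small-subunit members one of 2.57.

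The members did not move by the same amount. Rps27 stood at 4065, 3539, 3059 and 5464 RPKM in the isolation label, against 294, 290, 337 and 330 RPKM in isolated cells. That is a log2 change of 3.66 ± 0.18 (SE, n = 4 each; limma adjusted p = 3.74e-07), and every labelled library lay far above every total library. Rpl39, another exit tunnel protein, changed by 3.55 (11.7-fold) and Rps27l by 3.35. Rpl3l had the largest change, 5.32 ± 0.46. It stood at 22.9, 83.6, 85.4 and 27.9 RPKM in the label, against 0.470, 0.382, 0.748 and 1.25 RPKM in isolated cells. Its level was highest in replicates 2 and 3, the libraries with the largest share of fibre markers, and the part of fibre RNA in this change was not tested. At the other end, Rpl4 stood at 526, 498, 492 and 546 RPKM in the label, against 311, 307, 337 and 323 RPKM in isolated cells. Its log2 change was 0.69 ± 0.09 (adjusted p = 0.000179), and with library sizes from all reads it was -0.01. Rpl5, which carries 5S ribosomal RNA into the ribosome and can bind Mdm2, changed by 1.16 and Rpl3, the core protein near the peptidyl transferase centre, by 1.35. Of the stalk proteins that recruit translation factors, Rplp0 changed by 1.83, Rplp1 by 2.95 and Rplp2 by 2.79. Fau, made as a fusion with a ubiquitin-like protein, changed by 2.89. Rpl41, a peptide of the large subunit, changed by 2.96 and Rps6, the substrate of S6 kinase, by 1.96. Rpsa, which is also known as the laminin receptor, changed by 2.13, Rpl10 by 2.38, Rps4x by 1.77 and its relative Rps4l by 2.52.

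Other genes of the translation machinery moved less evenly. Of 19 measured genes that also carry TOP mRNAs, such as elongation and initiation factors, 10 were higher in the isolation label and 1, Eif3a, was lower, with a median change of 0.45. Eef1b2, an exchange factor for elongation, changed by 2.54. Of 75 tested genes for mitochondrial ribosomal proteins, which serve translation inside mitochondria, 73 were higher and none lower, with a median of 2.19. Gene length moved with the change. Members have short gene models (median 1439 bases, against 3299 for all genes tested). The rank correlation of length with log2 change was -0.33 across the 14863 genes and -0.30 across the 80 members, as a description of genes that are not independent. The part of gene length in the result was not tested. Markers of other cell types moved as well: 15 of 15 fibre markers, 7 of 8 immune markers and 4 of 4 erythroid markers were higher in the label, and 6 of 7 satellite cell markers were lower. In bulk RNA, fewer cells of a type and less RNA per cell cannot be told apart.

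**Figure D2:**
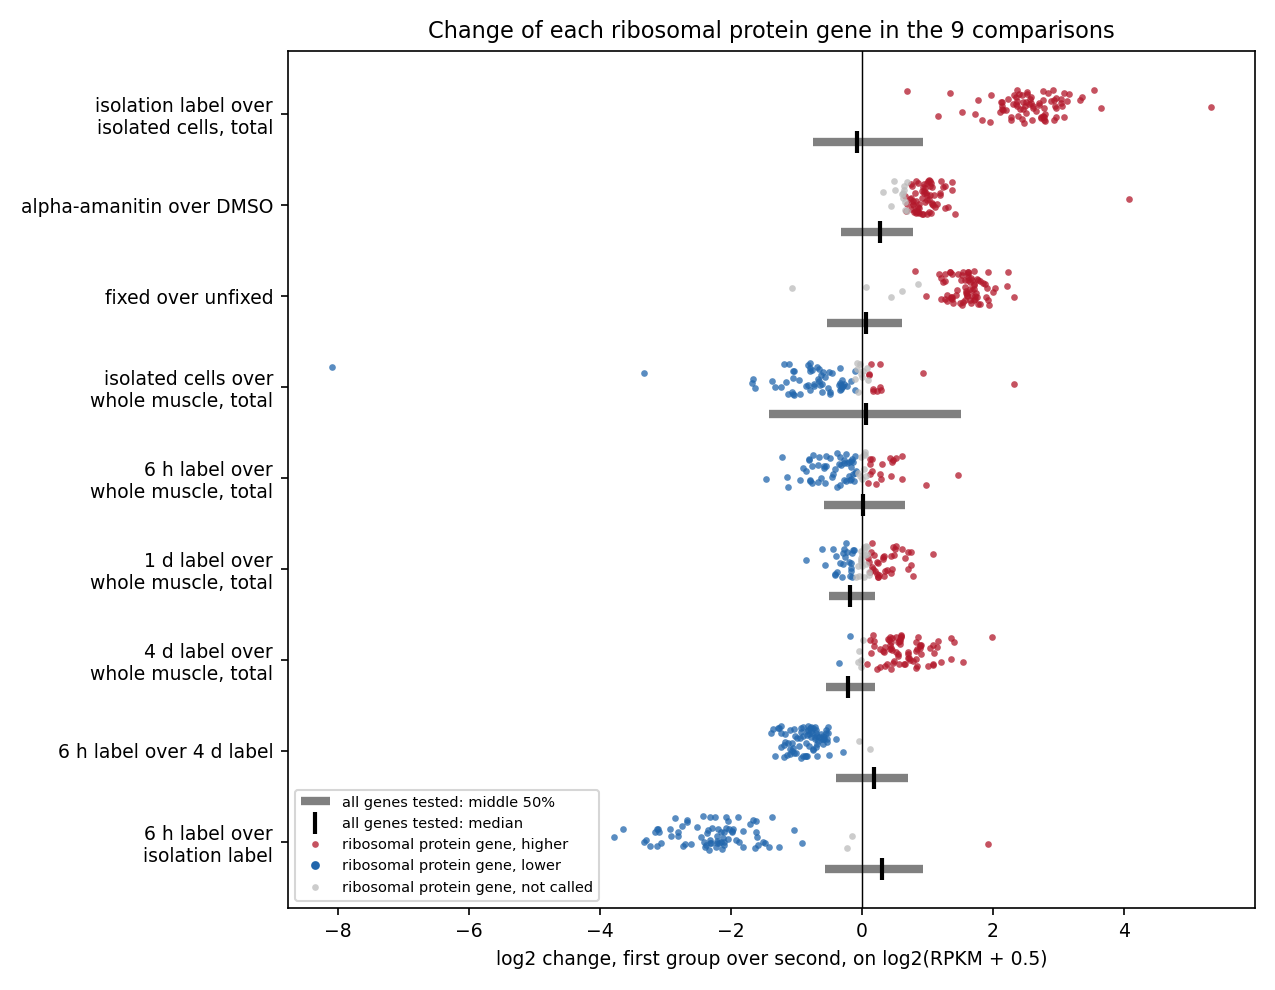
Log2 change of each of the 80 ribosomal protein genes, first group over second, in the 9 comparisons (points coloured by call), with the median and the middle 50% of all genes tested below each row. The members sit to the right of zero for the isolation label (median 2.56), alpha-amanitin (0.92) and fixed cells (1.61), and to the left for the 6 h label over the 4 d label (-0.83) and over the isolation label (-2.21).

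Blocking transcription with alpha-amanitin during isolation asks which RNAs depend on transcription in that time. With the authors' scaling most ribosomal protein transcripts were higher with the inhibitor: 67 of 80 were called higher and none lower than with DMSO, where 33.9% of 13710 genes tested were called higher and 10.3% lower. The median change was 0.92 on the log2 scale (1.89-fold), against 0.28 over all genes tested. The share of reads on members was 1.49, 1.73, 1.66 and 1.51% with alpha-amanitin, against 1.36, 1.27, 1.05 and 1.07% with DMSO. The groups did not overlap in this share, but in the RPKM of single members they overlapped in 66 of 80. Overlap was not counted over all genes, so this count has no background beside it. The direction depends on what the libraries are scaled to. Library sizes were also taken from mitochondrially encoded genes, whose RNA is made by the mitochondrial polymerase. Then 1 member was higher and 73 were lower, with a median of -0.58. Of 15086 genes tested there, 313 were called higher and 12574 lower. The share of reads on those mitochondrial genes itself differed, at 1.07 to 1.401% in alpha-amanitin libraries and 0.522 to 0.760% in DMSO libraries. That scaling moved the median of all genes tested to -1.11, and library sizes from all reads moved it to -0.29. Relative to the median of all genes tested, the members' median was 0.53 to 0.69 higher under these scalings, the main one and median-of-ratios factors. With no filter on low genes it was 0.83 higher.

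Among single members, Rps27l stood at 60.1, 125, 130 and 115 RPKM with alpha-amanitin, against 53.7, 40.5, 31.1 and 30.96 RPKM with DMSO (log2 1.43 ± 0.29, adjusted p = 0.0072). In human cells Rps27l is known as a target of p53. Replicate 1 was the lowest alpha-amanitin library and the highest DMSO library, and the groups did not overlap. Rpl41 changed by 1.23, Rps4l by 1.19 and Fau by 1.18. Rplp1 changed by 1.14, Rpl10 by 1.11, Rps4x by 1.08, Rplp0 by 1.01, Rplp2 by 0.995 and Rpsa by 0.99. The smallest values were those of Rpl24 (0.32, adjusted p = 0.166), Rpl3 (0.45, adjusted p = 0.156) and Rpl23a (0.49, adjusted p = 0.0705), none of which passed the test. Rpl39 (0.50), Rps6 (0.64) and Rps27 (0.66) did not pass it either. With mitochondrial scaling Rps27l was at -0.07 (adjusted p = 0.526) and Rps4l at -0.23 (adjusted p = 0.154), which did not pass, Rpl3l stayed higher, and the other members named here for this comparison were called lower.

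Rpl3l stood apart again. It was at 4.50, 16.9, 22.2 and 20.53 RPKM with alpha-amanitin, against 0.373, 0.409, 0.227 and 0.396 RPKM with DMSO, a log2 change of 4.07 ± 0.42 (adjusted p = 0.000324). The change was 2.99 with mitochondrial scaling. All 15 fibre markers were higher too, with a median change of 6.15, and Rpl3l was lowest in replicate 1, which had the smallest share of fibre markers. Of the other markers, 6 of 8 immune, 4 of 4 erythroid and 3 of 6 fibro-adipogenic ones were higher, with medians of 1.14, 1.403 and 0.72, and 1 immune marker was lower. Of 7 satellite cell markers 1 was higher and 1 lower, and their share of reads was 0.409 to 0.458% in alpha-amanitin cells and 0.573 to 0.660% in DMSO cells. The part of these RNAs in the members' change was not tested. Of the companion lists, 12 of 19 other TOP genes were higher (median 0.63) and 65 of 75 mitochondrial ribosomal protein genes were higher (median 1.14), with none lower on either list.

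The 2 libraries that stand apart decide how many genes passed, among the members and among all genes. Without both libraries numbered 1, all 80 members were higher, with a median of 1.28, against 0.48 over all genes tested. Of 13435 genes tested there, 8105 were called higher and 3353 lower. Rps27l then changed by 1.85 and Rpl3l by 4.59. Without alpha-amanitin replicate 1 all 80 members were higher, where 7367 of 13477 genes were. Without DMSO replicate 1 77 members were, where 4812 of 13681 genes were. With replicate 1 kept and alpha-amanitin replicate 2, 3 or 4 left out, 23, 25 and 26 members were called higher. Genes called higher were then 2317 of 13406, 2352 of 13402 and 2432 of 13399. Without DMSO replicate 2, 3 or 4 the members called higher were 33, 25 and 26. Genes called higher were then 2809 of 13443, 2750 of 13394 and 2912 of 13519. In none of these was a member called lower.

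Fixing the mouse before isolation asks what the cells' RNA was before the procedure. Fixed cells held more ribosomal protein RNA than unfixed cells in this table: 75 of 80 members were called higher and none lower, where 12.2% of 12816 genes tested were called higher and 10.8% lower. The median change was 1.61 (3.04-fold), against 0.07 over all genes tested. Members took 7.15, 6.17, 6.91 and 6.06% of reads in fixed libraries 1, 3, 4 and 5, against 2.29, 2.79 and 1.91% in the unfixed libraries. Every fixed library lay above every unfixed one by more than the spread within either group.

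Rpl29, which is not essential in the mouse, stood at 475, 741, 817 and 740 RPKM in fixed cells, against 157, 142 and 113 RPKM in unfixed cells (log2 2.32 ± 0.24, adjusted p = 0.000256). Rpl41 changed by 2.23 and Rps15 by 2.22, and no library of these genes overlapped between the groups. Rps4x changed by 1.93, Fau by 1.77, Rpl39 by 1.74, Rplp2 by 1.72, Rplp1 by 1.71, Rps27l by 1.68 and Rpsa by 1.66. Rpl10 changed by 1.54, Rpl3 by 1.30, Rps27 by 1.27 and Rps6 by 1.17. The 5 members that did not pass were Rplp0, Rpl4, Rpl24, Rps4l and Rpl3l. Rplp0 differed from its stalk partners: it stood at 1422, 1319, 1488 and 1398 RPKM in fixed cells, against 1053, 1327 and 797 RPKM in unfixed cells (log2 0.44 ± 0.23, adjusted p = 0.196). These values overlap, at 1 unfixed library. Rpl4 overlapped in none of its libraries but its difference, with means of 1610 and 1057 RPKM in fixed and unfixed cells, did not pass the test. Rpl3l, with as few as 16 reads in a fixed and 45 in an unfixed library, stood at 1.04, 0.424, 5.62 and 0.688 RPKM in fixed cells, against 8.17, 1.21 and 3.11 RPKM in unfixed cells (adjusted p = 0.313).

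Cell markers and other RNA classes moved in the same comparison. All 6 endothelial markers were lower in fixed cells, 5 of 13 tested fibre markers were lower and 4 of 7 satellite cell markers were lower, with 1, Pax7, higher. The share of mitochondrially encoded genes was 3.98 to 5.74% of reads in fixed cells and 1.05 to 2.16% in unfixed cells. Of 75 mitochondrial ribosomal protein genes 50 were higher and none lower (median 1.17), and of 19 other TOP genes 12 were higher and none lower (median 0.90). The part of these differences in the members' change was not tested.

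Isolated stem cells and whole muscle differed most in the paralogues. The comparison shares the isolated-cell libraries with that of the isolation label. With the authors' scaling, 11 members were higher and 59 lower in isolated cells than in whole muscle, where 48.8% of 14813 genes tested were called higher and 46.5% lower. The median change was -0.54, against 0.06 over all genes. This direction rests on the scaling: with library sizes from all reads 75 members were higher and 2 lower. Of 16285 genes tested there, 12378 were called higher and 3352 lower, and the median of all genes tested moved to 1.59. Relative to that median, the members' median was 0.56 to 0.60 lower with either scaling and with median-of-ratios factors. With no filter on low genes it was 0.85 lower. By reads, members took 1.32 to 1.46% in isolated cells and 0.675 to 0.698% in whole muscle, where fibre markers alone took 17.2 to 17.6%.

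Rpl3 stood at 212, 219, 237 and 229 RPKM in isolated cells, against 44.9, 42.3, 44.1 and 45.9 RPKM in whole muscle (log2 2.33 ± 0.04, adjusted p = 1.18e-13). Its paralogue Rpl3l went the other way, at under 1.3 RPKM in each isolated-cell library, against 310, 320, 328 and 317 RPKM in whole muscle (log2 -8.09 ± 0.17). The ratio of Rpl3l to Rpl3 RPKM was 0.00314 ± 0.00165 in isolated cells and 7.21 ± 0.349 in whole muscle (SD, n = 4 each), a ratio that no library scaling changes. Rps27l stood at 33.2, 33.7, 37.3 and 36.2 RPKM in isolated cells, against 354, 348, 361 and 363 RPKM in whole muscle (log2 -3.33 ± 0.04), while its relative Rps27 changed by -0.10 and did not pass. The ratio of Rps27l to Rps27 was 0.112 ± 0.00278 in isolated cells and 1.07 ± 0.0148 in whole muscle. Neither ratio overlapped between the groups. In mm10, Rpl3l lies at chr17:24727820-24736143 on the plus strand and Rpl3 at chr15:80077781-80083406 on the minus strand. Rps27l lies at chr9:66946086-66949516 on the plus strand and Rps27 at chr3:90212725-90213615 on the minus strand. Rps12 (0.93), Rps4x (0.30), Rpsa (0.27) and Rpl39 (0.23) were higher in isolated cells under the authors' scaling. Rplp2 (-1.68), Rps4l (-1.66), Rpl41 (-1.16), Rplp1 (-1.12), Fau (-1.05), Rplp0 (-0.65), Rpl10 (-0.36) and Rps6 (-0.29) were lower under it. With library sizes from all reads Rplp2 (-0.08) and Rps4l (-0.18) did not pass and the other 6 were positive. Mitochondrial ribosomal protein genes were lower in 75 of 75 (median -3.40), and other TOP genes higher in 6 and lower in 13 of 19.

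**Figure D3:**
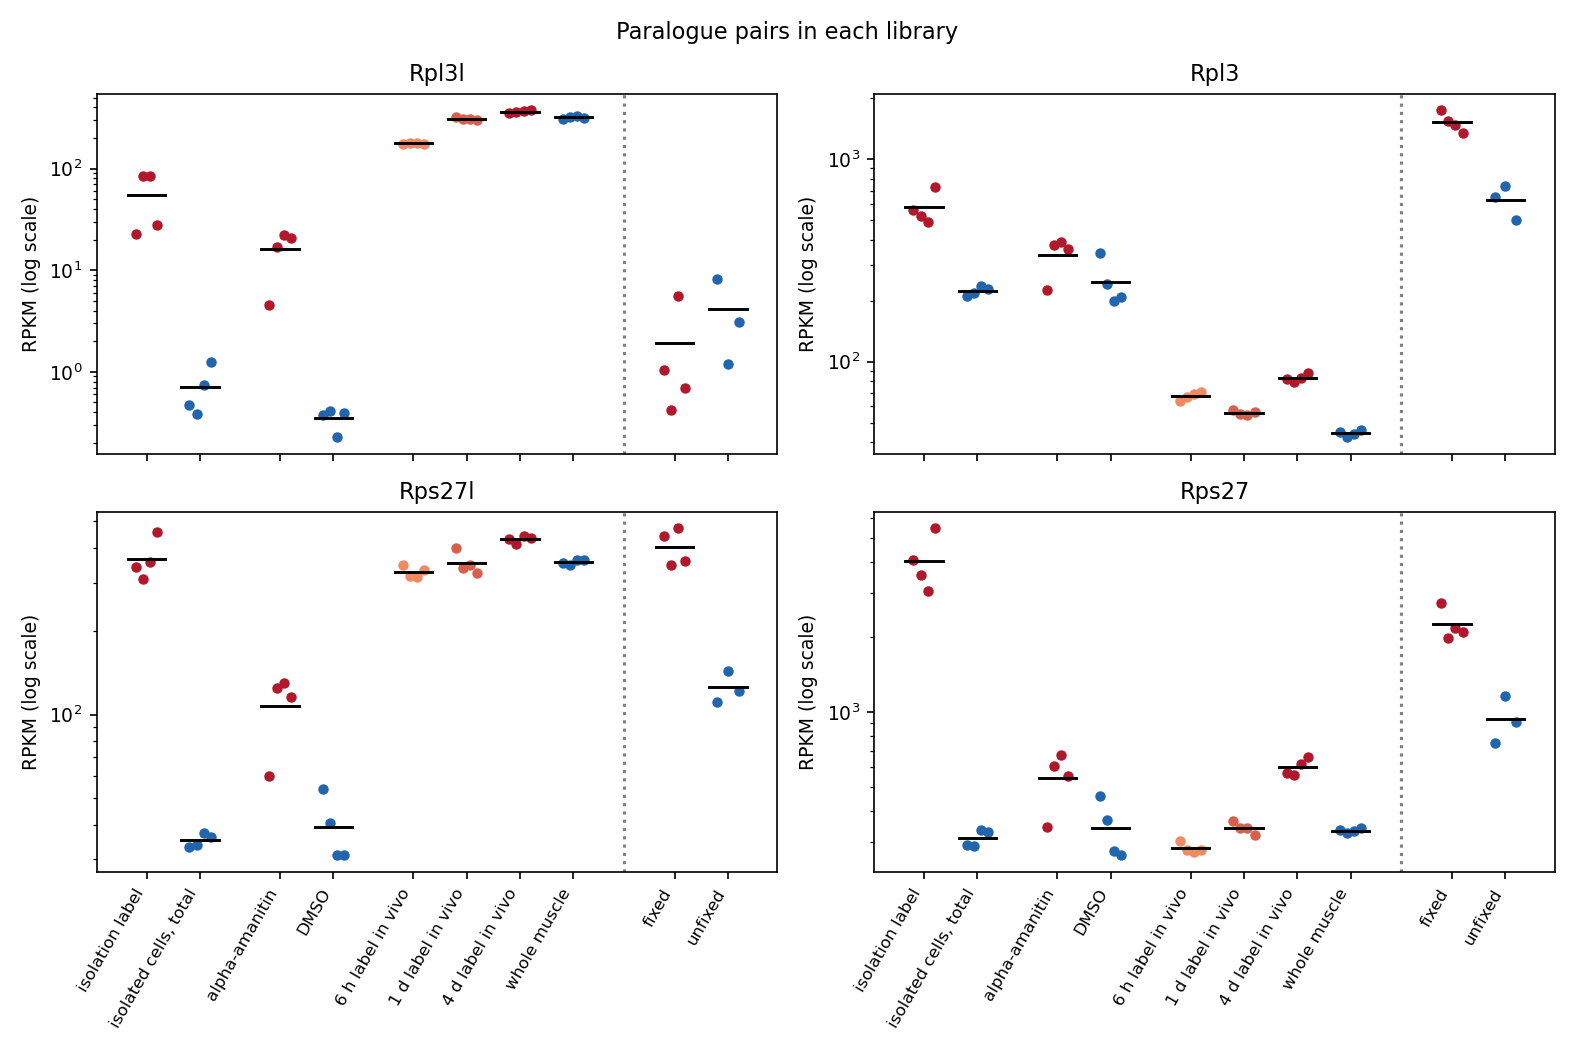
RPKM (log scale) of Rpl3l, Rpl3, Rps27l and Rps27 in each library by group, with the group mean as a bar. Rpl3l is at 177 to 364 RPKM on average in the 4 groups from muscle and at 0.712 in isolated cells, where Rpl3 averages 224 RPKM.

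The labels given in vivo show members at rising levels with longer labelling. All 3 were compared with the same 4 whole-muscle libraries, so these comparisons share their reference. No pull-down from unlabelled muscle is used here to measure background. On average, satellite cell markers took 0.0066% of reads in whole muscle. In the labels they took 0.0297% at 6 h, 0.0073% at 1 d and 0.0069% at 4 d. Of those tested, 5 of 6 were higher and 1 lower at 6 h. At 1 d 1 of 5 was higher and 1 lower, and at 4 d 1 of 5 was higher and 2 lower. The part of background in the members' change was not tested. In the 6 h label 19 members were higher and 52 lower than in whole muscle, where 45.6% of 11746 genes were called higher and 44.4% lower. In the 1 d label 36 were higher and 25 lower, where 28.2% of 11158 genes were higher and 54.7% lower. In the 4 d label 73 were higher and 2, Rpl4 and Rps4l, were lower, where 28.1% of 11347 genes were higher and 56.4% lower. The members' median change was -0.20 at 6 h, 0.07 at 1 d and 0.57 at 4 d, against 0.02, -0.19 and -0.21 over all genes tested. Scaling sets the direction at 6 h. With library sizes from all reads the members' median change was 0.15, and the median of all genes tested was 0.31. Relative to that median the members were 0.16 to 0.22 lower at 6 h, 0.26 to 0.28 higher at 1 d and 0.79 to 0.83 higher at 4 d over the 3 scalings run. These distances depend on which genes are tested: with no filter on low genes the members were 0.32 lower at 6 h, 0.03 higher at 1 d and 0.53 higher at 4 d. The share of reads on members, which depends on what else each library holds, was 0.704, 0.686, 0.682 and 0.662% at 6 h, 0.841, 0.784, 0.802 and 0.800% at 1 d, 1.10, 1.10, 1.11 and 1.17% at 4 d, and 0.694, 0.676, 0.675 and 0.698% in whole muscle. The 6 h label overlapped whole muscle and the 1 d and 4 d labels overlapped none of these groups.

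Set against each other, the 6 h label had lower levels than the 4 d label in 78 members and a higher level in none, where 52.7% of 11975 genes were called higher and 36.1% lower. The median change was -0.83, against 0.18 over all genes. The group mean rose in the order 6 h, 1 d, 4 d in 70 of 80 members, and in 19.2% of the 10461 genes at 1 RPKM or more in all 3 groups. The 10 exceptions were Rps12, Rps16, Rps4l, Rpl3, Rpl7a, Rpl17, Rpl22, Rpl24, Rpl27a and Rpl30. Fibre markers were 14 of 15 lower and 1 higher in the 6 h label than in the 4 d label, 4 of 4 erythroid markers were lower, and 5 of 6 tested satellite cell markers were higher with 1 lower. Gene length moved with this change too. The rank correlation of length with log2 change was 0.31 across the 11975 genes and 0.13 across the 80 members. Members had a median length of 1439 bases, against 3461 for all genes tested there. Across all genes tested against whole muscle the correlation was 0.29 at 6 h, 0.17 at 1 d and 0.02 at 4 d. The part of the cell markers and of gene length in the members' change was not tested.

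**Figure D4:**
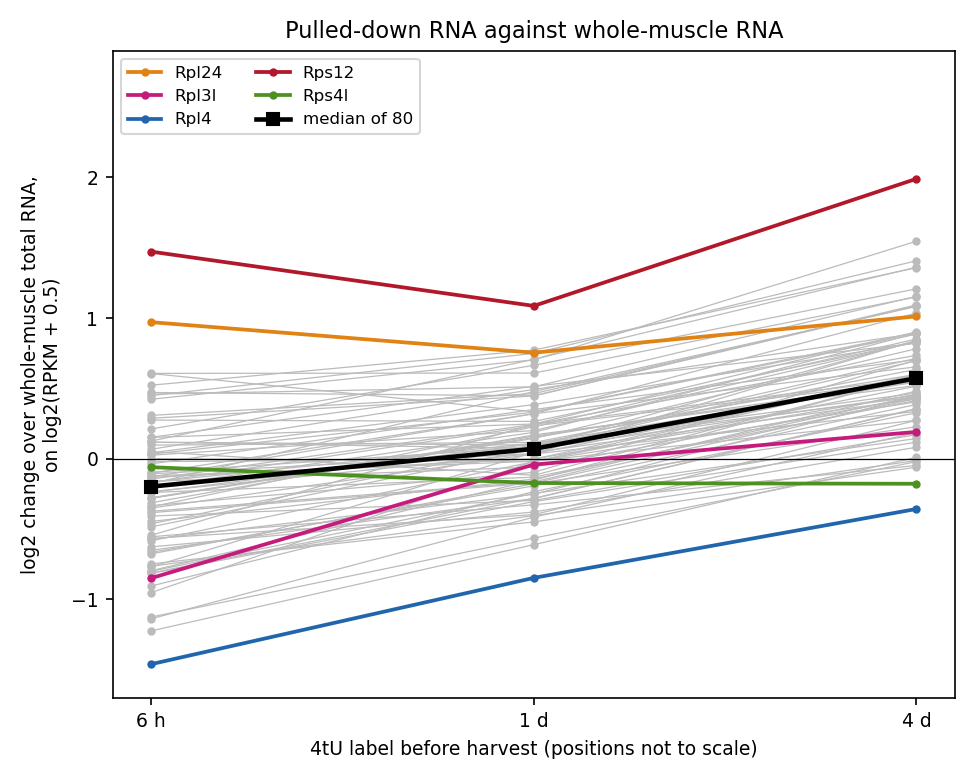
Log2 change of each member in the 6 h, 1 d and 4 d labels over whole-muscle total RNA, 1 line per gene, with the median of the 80 in black and 5 genes named. The median runs from -0.20 at 6 h to 0.57 at 4 d, Rps12 lies above it throughout and Rpl4 below it.

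Rps12 was the highest member in all 3 labels relative to whole muscle. It stood at 134, 124, 119 and 125 RPKM at 6 h, 101, 100, 95.2 and 88.1 at 1 d, and 184, 173, 178 and 185 at 4 d, against 45.4, 42.2, 44.3 and 48.0 RPKM in whole muscle. The log2 changes were 1.47, 1.09 and 1.99, and all 4 groups were apart. Rpl4 was the lowest in all 3, at 184 to 187 RPKM at 6 h, 271 to 290 at 1 d and 379 to 414 at 4 d, against 499 to 523 RPKM in whole muscle. Its log2 changes were -1.46, -0.85 and -0.36. Rpl31 (-1.22) and Rpl37 (-1.14) were next lowest at 6 h, and Rpl24 (0.97) and Rps13 (0.61) next highest. At 1 d Rpl31 (-0.61) was low, and Rps10 (0.77) and Rpl24 (0.75) high. At 4 d Rps21 (1.55) and Rps15a (1.41) followed Rps12.

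Rpl3l stayed above Rpl3 under all 3 in vivo labels, by less than in whole muscle. Rpl3l was at 176 to 177 RPKM at 6 h, 301 to 322 at 1 d and 352 to 378 at 4 d, against 310 to 328 RPKM in whole muscle, with log2 changes of -0.85, -0.04 (not passing) and 0.19. Rpl3 was at 63.9 to 70.4, 54.6 to 57.7 and 79.1 to 88.2 RPKM, against 42.3 to 45.9 RPKM in whole muscle, with log2 changes of 0.61, 0.33 and 0.90. Their ratio was 2.62 ± 0.111 at 6 h, 5.54 ± 0.140 at 1 d and 4.39 ± 0.108 at 4 d, against 7.21 ± 0.349 in whole muscle, with no overlap between groups. Rps27l changed by -0.12, -0.02 (not passing) and 0.27, and Rps27 by -0.23, 0.04 (not passing) and 0.84. Rps4l changed by -0.06 (not passing), -0.17 and -0.18, and Rps4x by -0.28, 0.14 and 0.78. The stalk genes differed at 6 h, with -0.80 for Rplp0, -0.54 for Rplp1 and -0.31 for Rplp2, and at 4 d, with 0.14, 0.74 and 0.52. At 1 d they were at -0.25, 0.25 and 0.17. For Rpsa the changes were 0.21, 0.66 and 1.21, for Rpl39 0.46, 0.51 and 1.15, for Rpl10 0.10, 0.12 and 0.63, and for Rpl41 -0.34, 0.23 and 0.85. Fau (-0.76, -0.40 and -0.01) and Rps6 (-0.75, -0.45 and -0.06) were lower at 6 h and 1 d and did not pass at 4 d.

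From 6 h to 4 d in direct comparison, the 6 h label was lowest relative to the 4 d label in Rps29 (61.3 ± 6.31 RPKM against 160 ± 9.96, log2 -1.38), Rpl13 (-1.36) and Rpl37 (-1.32). The smallest differences were those of Rpl3 (-0.29), Rpl24 (-0.04, adjusted p = 0.517) and Rps4l (0.12, adjusted p = 0.0668), of which Rpl3 passed. Rplp1 (-1.28), Rpl41 (-1.19), Rps27 (-1.07), Rps4x (-1.06), Rpl3l (-1.04), Rpsa (-0.996), Rplp0 (-0.94), Rplp2 (-0.83), Fau (-0.75), Rpl39 (-0.70), Rps6 (-0.69), Rpl10 (-0.54) and Rps27l (-0.40) were all lower.

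Labelling for 6 h in the animal and labelling through an isolation of about 6 h gave different levels of these transcripts. Both comparisons that follow reuse the 6 h libraries. In the 6 h in vivo label 77 members were lower and 1 higher than in the isolation label, where 38.5% of 13003 genes were called higher and 24.4% lower. The median change was -2.21, against 0.31 over all genes. Rps27 stood at 304, 281, 275 and 280 RPKM in the in vivo label, against 4065, 3539, 3059 and 5464 RPKM in the isolation label (log2 -3.79 ± 0.18, adjusted p = 6.54e-07). Rpl37 (-3.65), Rpl39 (-3.32) and Rpl3 (-3.07) followed among the named genes. The remaining ones were Fau (-2.60), Rps6 (-2.42), Rplp1 (-2.37), Rps4x (-2.35), Rpsa (-2.19), Rpl41 (-2.15), Rplp0 (-1.98), Rpl10 (-1.92), Rplp2 (-1.42) and Rps4l (-0.92). The exception was Rpl3l, at 176 to 177 RPKM in the in vivo label, against 22.9 to 85.4 RPKM in the isolation label (log2 1.92 ± 0.41, adjusted p = 0.00315). Rps27l (-0.15, adjusted p = 0.386) and Rpl24 (-0.24, adjusted p = 0.373) did not pass. This comparison also sets RNA pulled down from whole muscle against RNA from purified cells, and 13 of 15 fibre markers were higher and 7 of 7 satellite cell markers lower in the in vivo label. Label and source of the RNA cannot be told apart in it. Without isolation-label libraries 2 and 3, 78 members were lower, Rpl24 (-0.62) among them, and 1 was higher. Their median was -2.41, against 0.48 over all genes tested. Counts over all genes in that fit are not given here. Rpl3l was then at 2.78 and Rps27l at -0.27 (adjusted p = 0.0892).

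Each pull-down can instead be set against total RNA of isolated cells or of whole muscle. The isolated-cell libraries are listed as unlabelled and held 0.0395 to 0.121% fibre-marker reads, below the 2.51 to 8.41% of the isolation label, and whether they come from the labelled cells is not clear from the labels. The change of the isolation label over isolated cells was larger than that of the 6 h label over whole muscle in 79 of 80 members and smaller in none, in a limma interaction chosen after seeing the data, in which 33.4% of 15451 genes tested were positive. The median difference was 2.79 on the log2 scale, against -0.23 over all genes. The largest was that of Rpl3l (6.17), and the smallest those of Rpl24 (0.55, adjusted p = 0.0542) and Rpl3 (0.74). Without isolation-label libraries 2 and 3 all 80 were larger, with a median of 3.02, where 5397 of 15232 genes tested were positive.

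Over the 32 libraries of the larger table most members followed the median of the others, and a few did so less. The same correlation was not taken for other genes. The correlation of log2(RPKM + 0.5) of a member with the median of the other members, given as a description, was lowest for Rpl3l (r = 0.35), Rpl3 (0.43), Rpl4 (0.56), Rps27l (0.57) and Rpl24 (0.69). These 32 libraries fall into 8 groups that share sources and scaling. Of the 5, Rpl3l and Rps27l are the paralogues high in whole muscle, Rpl3 is the member highest in isolated cells relative to whole muscle, Rpl4 is the member least raised in the isolation label, and Rpl24 rests on the fewest reads there.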

How the data were processed

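Polyadenylated RNA was sequenced in 39 libraries, and the authors deposited RPKM in 1 table of 32 libraries and 1 of 7. The authors worked on mm10 with STAR, Trim Galore, edgeR and featureCounts (part of Subread), per the submitters' processing notes. The sources used here give neither their versions nor the multi-mapping and strand settings of the counting. Header names in the larger table lie 1 cell left of their values and were matched accordingly. Tests used limma 3.58.1 (R 4.3.3, trend option) on log2(RPKM + 0.5), with only the 2 groups compared in each fit. A gene was tested where 3 or more of the fitted libraries reached 1 RPKM, with calls at Benjamini-Hochberg adjusted p under 0.05 over all of them. Fold changes on this scale understate changes of low genes. Whole reads were recovered from the RPKM in all values (100% within 0.1 of a read) and used for depth, shares and an alternative fit with limma-voom, given in the closing section. All value columns were used. The tables were scaled separately, so tests stayed within a table.

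The fit was run on simulated data with noise drawn separately for each gene and library. Those data hold no library set apart from its group, and the outcome is not given here. Named were paralogues and their relatives, stalk genes, Rpsa, Fau, Rps6 and Rpl41 in every comparison, the 3 highest and 3 lowest changes in each, the 5 members least correlated with the rest and the 3 highest in isolated cells. Rpl39l and Rpl10l were not analysed here, and 1 member that the rule names is not reported here. Members, lists and rules were chosen with earlier results of these data known. Start sequences are RefSeq's, on GRCm38.p6. Python 3.11.15, numpy 2.4.6, pandas 2.3.3, scipy 1.17.1 and matplotlib 3.10.9 were used. Alternatives covered the pseudocount (1 and 0.1), the filter, library sizes, limma-voom, 1 fit over all groups, a replicate block and leaving out libraries.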

Additional observations from a re-analysis of the deposited data

Results flagged for a closer look

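Of 153 groups of 4 libraries examined in the named genes and in the share of reads, 7 had 1 library far from the others by Dixon's criterion, which chance meets in about 1 in 20 groups. Alpha-amanitin replicate 1 was the low library in 4 of them. It held 83.9 RPKM of Rpl10, 364 RPKM of Rplp0, 76.3 RPKM of Fau and 73.8 RPKM of Rps6, below the other 3 alpha-amanitin libraries in each. Fixed library 4 held 5.62 RPKM of Rpl3l, where the other fixed libraries held 0.424 to 1.04 RPKM. The 1 d label replicate 1 held 120 RPKM of Rplp2, above its group. The 4 d label replicate 4 had 1.17% of reads on ribosomal protein genes, where the others had 1.10 to 1.11%.

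The pull-down over total RNA change was larger for the isolation label than for the 6 h in vivo label in 79 of 80 members by the limma interaction, with Rpl24 the exception. No explanation was tested for any of these.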

How the results depend on the processing

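Of 292 alternative counts of members called, 264 lay within 1.5 times the reported count. With alpha-amanitin, mitochondrial library sizes gave 1 higher and 73 lower, where 313 and 12574 of 15086 genes were. Leaving out 1 library gave 23 to 80 higher, where 2317 of 13406 to 7367 of 13477 genes were higher. Replicate numbers were not used to pair the samples in the main fits. Deviations of same-numbered libraries from their group means correlated at r = -0.59 to -0.11 with alpha-amanitin and DMSO. The range was 0.008 to 0.24 in the comparisons with whole muscle and -0.05 to 0.15 in the rest. With a replicate block 2 members were higher with alpha-amanitin, where 1678 of 13710 genes were. With such a block 1 was lower in fixed cells, where 980 of 12816 genes were, and 1 was higher at 6 h over 4 d. With library sizes from all reads, 75 were higher and 2 lower in isolated cells over muscle. Of 16285 genes tested there, 12378 were higher and 3352 lower. The other counts were 44 and 26 at 6 h, 58 and 8 at 1 d, and 1 lower at 4 d. At 6 h over 4 d 1 was higher (0 to 1 without 1 library). With 1 fit over all groups 2 were higher in isolated cells, where 6695 of 14813 genes were. The counts were then 9 and 30 at 6 h, 16 and 7 at 1 d, and 1 lower at 4 d. Median-of-ratios factors gave 3 higher in isolated cells, where 6714 of 14660 genes were, and 10 at 6 h. For the in vivo labels, counts over all genes under these alternatives are not given here.

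Signs of named members turned in 54 of 2676 alternatives. With mitochondrial library sizes the alpha-amanitin log2 changes were Fau -0.31, Rpl10 -0.39, Rpl23a -0.96, Rpl24 -0.97, Rpl3 -1.06, Rpl39 -0.97, Rpl41 -0.27, Rplp0 -0.49, Rplp1 -0.36, Rplp2 -0.50, Rps27 -0.84, Rps27l -0.069, Rps4l -0.23, Rps4x -0.42, Rps6 -0.86 and Rpsa -0.52. With all reads, Rpl23a was -0.0040, Rpl24 -0.13, Rpl3 -0.071 and Rpl39 -0.0014 with alpha-amanitin, and Rpl4 -0.010 in the isolation label. In isolated cells over muscle they gave Fau 0.55, Rpl10 1.25, Rpl41 0.45, Rplp0 0.97, Rplp1 0.49, Rps27 1.51 and Rps6 1.31. At 6 h they gave Rpl41 0.015, Rplp2 0.044, Rps27 0.12, Rps27l 0.24, Rps4l 0.28 and Rps4x 0.074. At 1 d they gave Rpl3l 0.18, Rps27l 0.20 and Rps4l 0.038, at 4 d Fau 0.18, Rps4l 0.011 and Rps6 0.14, and at 6 h over 4 d Rpl24 0.10. Median-of-ratios factors gave Rps4l -0.0090 in fixed cells, Rpl10 -0.12 and Rpsa -0.0097 at 6 h, Rps27l 0.0064 at 1 d and Fau 0.017 at 4 d. Leaving out 1 library gave Rps4l -0.17 to 0.27 in fixed cells, Rps27l -0.080 to 0.020 at 1 d and Fau -0.034 to 0.016 at 4 d. The cause of these changes was not tested. Depth limits Rpl24 in the isolation label, with 13 reads in 1 library, and Rpl3l in fixed cells, with 16.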
